A study of Mus musculus with 12 samples.

Results

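Genes of the extracellular matrix were followed in bulk RNA sequencing of mouse pancreatic islets. The set holds 71 of the 24421 genes counted: all collagen and laminin chains and tissue inhibitors of metalloproteinases found by symbol, with Fn1, Sparc, Bgn, Dcn, Lum, Postn, Nid1, Nid2, Fbn1, Hspg2, Mmp2 and Mmp14. By known place in tissue, 22 were classed as basement membrane genes, 36 as interstitial genes and 13 as neither. Of 12 islet libraries, 6 came from Il22ra1βKO mice (BKO), in which subunit alpha 1 of the interleukin-22 receptor is lacking in β cells, and 6 from Ins2Cre mice (Cre), the controls. Both groups had been fed a high-fat diet (HFD) for 6 weeks. The control name points to Cre recombinase driven from the insulin 2 gene, and cells other than β cells in these whole islets are not the target of the deletion. The labels give neither age nor sex, nor the alleles of the BKO mice, and leave unsaid if libraries are from separate animals. The p-values therefore measure the spread between these libraries only, which may be technical in part.

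The basement membrane is a protein sheet under endothelium and epithelium, made of a type IV collagen network and a laminin network that nidogens and the proteoglycan perlecan tie together. In mouse islets it lies around the capillaries, endothelial cells are known as its main source, and β cells touch it through integrins. Interstitial matrix, made mostly by fibroblasts, stellate cells and pericytes, holds fibrillar collagens, fibronectin and small proteoglycans.

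Gene totals ran from 10356093 to 11902217 reads for BKO and from 11444273 to 12397139 for Cre, of which matrix genes took 0.116% to 0.166% and 0.0975% to 0.142%. Il22ra1 had 1 to 3 reads per BKO library and 1 to 5 per Cre library, too few to check the labels. Levels below are in CPM, a gene's reads scaled to a common library total after TMM adjustment. β-cell markers were high throughout, summing to between 97991 and 156260 CPM. Cre-5 had the highest level of its group for 36 of the 53 matrix genes tested, and BKO-3 the lowest of its group for 26.

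Basement membrane genes had mostly positive fold changes in BKO islets and interstitial genes less uniformly so. No gene passed the edgeR test fitted without the replicate number as a block, and the fit with that block is described at the end. In edgeR, 0 of the 53 matrix genes tested were called higher and 0 lower at an adjusted p under 0.05, as in 0.00% and 0.00% of all 13583 genes. At an unadjusted p under 0.05, 21 of the 53 were higher and 2 lower, against 8.70% and 4.66% of all genes. DESeq2 called 4 of them higher (Col15a1, Col18a1, Lama4 and Lamb3) and 0 lower, against 1.24% and 0.398% of all genes, and limma-voom called 0. The median log2 fold change of the 53 was 0.34, that of all genes 0.0078. A gene can pass the read filter through the group where it is high; with no filter, 22 of the 71 were higher and 2 lower at an unadjusted p under 0.05, against 6.50% and 4.39% of all genes, and the median was 0.32. The 2 groups overlapped in every tested matrix gene. The share over all genes was not computed, so this does not set matrix genes apart.

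Among basement membrane genes 16 of 17 tested had a positive fold change, with a median of 0.36 and 11 at an unadjusted p under 0.05. Among interstitial genes 22 of 28 were positive, with a median of 0.21, and 6 were higher and 2 lower at that level. The 8 tested genes of neither class were all positive, with a median of 0.35. The difference between classes was not tested.

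Marker lists of several cell types leaned one way between the groups, with no marker called in edgeR. Endothelial markers were positive in 15 of 15, with a median of 0.43, and summed to 595 to 831 CPM for BKO against 468 to 658 CPM for Cre. At an unadjusted p under 0.05, 13 of the 15 were higher, against 8.70% of all genes. In sums, every BKO library but BKO-1 was above every Cre library. Of pericyte and stellate cell markers 9 of 11 were positive (sums from 71.6 to 102 CPM and from 61.5 to 87.3 CPM), and of fibroblast markers 5 of 7 (sums from 12.7 to 21.3 CPM and from 7.95 to 24.4 CPM). Markers of endocrine cells other than β cells were positive in 9 of 10 (median 0.35), with sums from 17991 to 36044 CPM for BKO and from 13581 to 21509.8 CPM for Cre, where every BKO library but BKO-4 was above every Cre library. Acinar markers were positive in 12 of 13 (median 0.57), with sums from 1576 to 5535 CPM and from 311 to 7055 CPM, and Cre-2 was the highest of all. Macrophage markers were negative in 8 of 9 (median -0.37), with sums from 128 to 156 CPM and from 135 to 176 CPM.

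With the mean endothelial marker level as a covariate, the median of the 53 matrix genes was -0.087, with 0 higher and 5 lower at an unadjusted p under 0.05, against 1.99% and 1.39% of all genes in that fit. Endothelial marker sums nearly separated the groups, so this fit cannot fully tell marker level from genotype. Among genes that kept their sign, Lamb3 was at 0.25 in place of 1.20, Col15a1 at 0.26 in place of 0.94 and Col18a1 at 0.19 in place of 0.79. With the pericyte and stellate marker level as a covariate, 6 were higher and 3 lower, against 3.85% and 2.97%. The part of these cell types in the result was not tested beyond the endothelial, pericyte and acinar covariates, and in whole islets more cells of a type and more RNA per cell cannot be told apart.

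**Figure D1:**
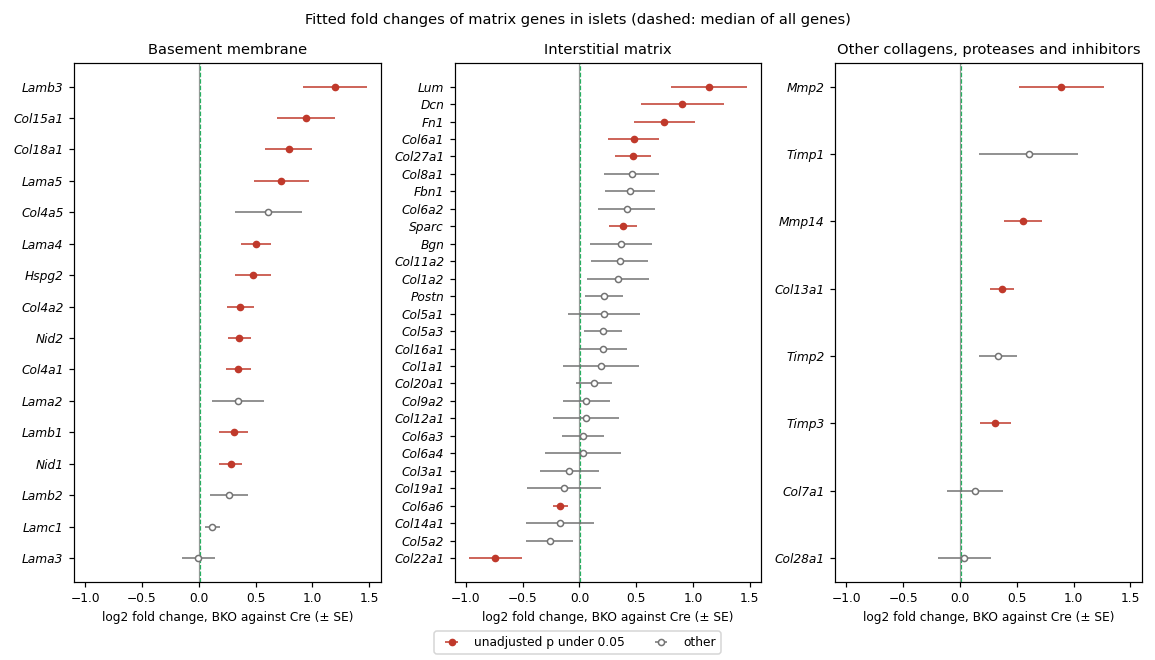
Fitted log2 fold changes of BKO against Cre (x axis, ± SE) for 52 of the 53 tested matrix genes in 3 classes, with filled points at an unadjusted p under 0.05 and a dashed line at the median of all genes, 0.0078. Lamb3 has the highest value, 1.20, and Col22a1 the lowest, -0.74.

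Col4a1 and Col4a2 encode the chains of the common type IV collagen trimer. They lie head to head in the mouse genome (GRCm38, the mm10 assembly), Col4a1 on chromosome 8, 11198423 to 11312826, minus strand, and Col4a2 on chromosome 8, 11312805 to 11449287, plus strand. Their start sites are 21 bases apart. The promoter windows, 250 bases before to 50 after the RefSeq start (GRCm38.p6), are shown for this head-to-head pair. Capitals mark the 78 bases common to both windows, read from opposite strands. The part of this shared stretch in the levels was not tested.
Col4a1 (chr8:11312777-11313076, minus strand): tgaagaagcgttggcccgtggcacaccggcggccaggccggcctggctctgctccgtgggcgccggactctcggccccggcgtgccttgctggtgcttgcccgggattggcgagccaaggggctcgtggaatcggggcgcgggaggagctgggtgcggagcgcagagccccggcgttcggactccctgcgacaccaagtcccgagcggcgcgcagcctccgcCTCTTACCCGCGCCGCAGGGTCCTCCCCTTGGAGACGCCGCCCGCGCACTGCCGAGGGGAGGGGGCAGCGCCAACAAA
Col4a2 (chr8:11312555-11312854, plus strand): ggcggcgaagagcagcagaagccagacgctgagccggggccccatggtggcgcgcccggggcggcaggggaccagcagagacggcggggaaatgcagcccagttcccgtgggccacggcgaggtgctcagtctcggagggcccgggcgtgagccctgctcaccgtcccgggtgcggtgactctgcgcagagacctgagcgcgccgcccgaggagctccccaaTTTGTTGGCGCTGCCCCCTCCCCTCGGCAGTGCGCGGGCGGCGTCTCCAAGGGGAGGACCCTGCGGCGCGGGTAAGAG
The Col4a1 window holds 1 GC box (GGGCGG on either strand) and 1 CCAAT box (CCAAT on either strand), and the Col4a2 window 3 and 1.

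Col4a1 ran from 145 to 222 CPM (median 195) over BKO libraries and from 125 to 180.2 CPM (median 143) over Cre libraries. BKO-1 and BKO-3 lay within the Cre range, below Cre-5, and the other 4 BKO libraries were above every Cre library. This gave a log2 fold change of 0.35 ± 0.11 (SE), with 5 of 6 BKO libraries above the Cre mean (unadjusted p = 0.00595, adjusted p = 0.198). Col4a2 ran from 109 to 175 CPM (median 154) over BKO libraries and from 98.8 to 135 CPM (median 112) over Cre libraries, with the same libraries overlapping. Its log2 fold change was 0.36 ± 0.12 (unadjusted p = 0.00905, adjusted p = 0.222). Over the 12 libraries the log2 levels of the pair correlated with r = 0.985 and rho = 0.986 (permutation p = 1e-05 and 1e-05, adjusted p = 6e-05 and 6e-05 over 6 pairs), where 1e-05 is the smallest p that 100000 permutations can give. Within groups, r was 0.981 among BKO libraries alone, 0.989 among Cre libraries alone and 0.978 without the 2 libraries farthest from the median. Correlations between genes that are not partners were not computed. Many matrix genes shared a high library, as Cre-5 was the highest Cre library for 36 of 53. The p-values of the 6 pairs therefore do not set partner chains apart from other matrix genes. The ratio of Col4a1 to Col4a2 per length was 1.13 ± 0.0527 for BKO and 1.14 ± 0.0259 for Cre (SD, n = 6 each), with a two-sided exact permutation p of 0.855.

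The remaining type IV chains were scarce. Col4a5 was at 2.15 ± 1.01 CPM over BKO libraries and 1.41 ± 0.419 CPM over Cre libraries (SD, n = 6 each), with a log2 fold change of 0.61 ± 0.30 (adjusted p = 0.385). Col4a3, Col4a4 and Col4a6 had at most 12 reads in any library and were not tested. Col4a6 gave 28 reads in all BKO libraries together and 6 in all Cre libraries. Per length, Col4a1 made up 52.5% ± 1.04 for BKO and 52.8% ± 0.526 for Cre of type IV chains and Col4a2 46.3% ± 1.30 for BKO and 46.3% ± 0.583 for Cre.

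The multiplexins Col15a1 and Col18a1, collagens with glycosaminoglycan chains at the border of basement membranes, had the highest median of any matrix role, 0.87. Col15a1 ran from 22.5 to 58.9 CPM (median 48.1) over BKO libraries and from 17.6 to 35.9 CPM (median 21.4) over Cre libraries. BKO-3 and BKO-4 lay within the Cre range and the other 4 above it. The difference was 0.94 ± 0.25 on the log2 scale, a fold of 1.92 (unadjusted p = 0.00335, adjusted p = 0.169). Col18a1, the precursor of endostatin, ran from 29.2 to 62.8 CPM (median 48.6) over BKO libraries and from 18.9 to 37.8 CPM (median 25.8) over Cre libraries. Cre-5 alone reached into the BKO range, above BKO-3 and BKO-4. Its difference was 0.79 ± 0.21, a fold of 1.73 (unadjusted p = 0.00257, adjusted p = 0.169). In DESeq2 the adjusted p was 0.0329 for Col15a1 and 0.00782 for Col18a1.

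Laminins are trimers of an alpha, a beta and a gamma chain. Of 11 laminin genes 9 were tested, 8 were positive and 4 were higher at an unadjusted p under 0.05. Lama4, the alpha chain of endothelial laminin, ran from 18.2 to 27.8 CPM (median 22.5) over BKO libraries and from 12.2 to 19.7 CPM (median 16.0) over Cre libraries. Of the BKO libraries BKO-3 alone lay within the Cre range, below Cre-1 and Cre-5. The log2 fold change was 0.50 ± 0.13 (unadjusted p = 0.00121, adjusted p = 0.152, DESeq2 adjusted p = 0.0347). Lama5, the other alpha chain of vascular laminins, ran from 18.6 to 43.5 CPM (median 31.2) over BKO libraries and from 13.6 to 27.1 CPM (median 18.5) over Cre libraries. BKO-4 was below the Cre mean, BKO-3 below Cre-1 and Cre-5, and the other 4 above every Cre library, a log2 fold change of 0.73 ± 0.24 (unadjusted p = 0.0108, adjusted p = 0.229). Lama3, an epithelial chain, was at 8.75 ± 1.95 CPM over BKO libraries and 8.78 ± 1.33 CPM over Cre libraries (-0.0056 ± 0.14 on the log2 scale), and Lama2 at 0.34 ± 0.23 on the same scale (adjusted p = 0.572).

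Lamb3, the beta chain that joins Lama3 in the anchoring laminin of epithelia (chromosome 1, 193207699 to 193343878, plus strand), had the smallest p of the 53 genes. It ran from 2.35 to 7.66 CPM (median 4.45) over BKO libraries and from 1.15 to 2.88 CPM (median 1.91) over Cre libraries, on 13 to 81 reads per library. BKO-3 and BKO-4 lay just within the Cre range and all 6 BKO libraries above the Cre mean. The log2 fold change was 1.20 ± 0.28, a fold of 2.29 (unadjusted p = 0.000516, adjusted p = 0.135, DESeq2 adjusted p = 0.0127). The ratio of Lamb3 to Lamb1 per length was 0.134 ± 0.0423 for BKO and 0.0730 ± 0.0204 for Cre (SD, n = 6 each; exact permutation p = 0.0130, two-sided, adjusted p = 0.0909 over 7 chain ratios). Without BKO-4 the adjusted p of this exact test was 0.0152, and in the 11 tests without another library it was not under 0.05. Duct markers, of the epithelium nearest to islets, were positive in 5 of 10. At an unadjusted p under 0.05, 3 of them were higher and 0 lower, against 8.70% and 4.66% of all genes. Duct marker sums ran from 2111 to 3249 CPM for BKO and from 2347 to 2955 CPM for Cre. The part of duct cells was not tested.

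Lamb1, the widespread beta chain, ran from 34.9 to 61.5 CPM (median 50.8) over BKO libraries and from 35.3 to 50.5 CPM (median 37.6) over Cre libraries. BKO-3 was lower than every Cre library and the other 5 were above the Cre mean (log2 fold change 0.31 ± 0.13, unadjusted p = 0.0346, adjusted p = 0.331). Lamc1, the widespread gamma chain, ran from 69.2 to 93.5 CPM (median 84.0) over BKO libraries and from 69.7 to 81.1 CPM (median 75.2) over Cre libraries, at 0.12 ± 0.070 on the log2 scale (adjusted p = 0.498), and at 0.065 without BKO-2. Levels of Lamb1 and Lamc1 correlated with r = 0.828 and rho = 0.797 (permutation p = 0.00114 and 0.00279, adjusted p = 0.00171 and 0.00419 over 6 pairs), and r was 0.775 among BKO libraries alone, 0.876 among Cre libraries alone and 0.849 without the 2 libraries farthest from the median. Lamb2 was at 0.27 ± 0.17 (adjusted p = 0.543). Lama1 and Lamc3, with at most 9 reads in any library, were not tested.

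**Figure D2:**
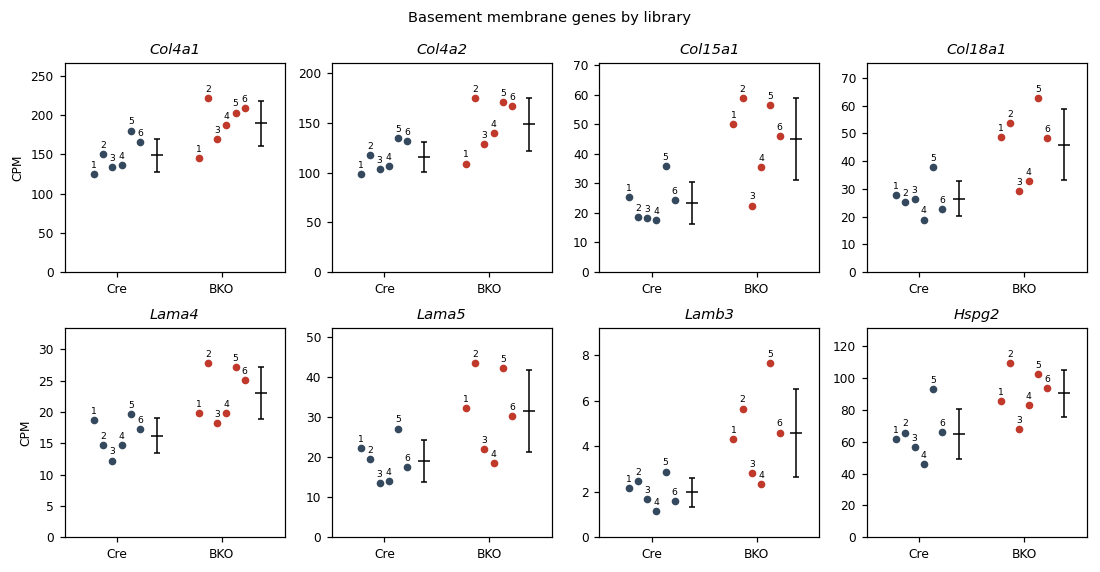
CPM (y axis, from 0) of 8 basement membrane genes in each library, marked by replicate number, with the mean ± SD of 6 libraries beside each group. BKO-3 lies low among BKO and Cre-5 high among Cre, and the groups overlap in every panel.

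Per length (RPKM, the CPM over the exon length in kilobases), Lamc1 was at 9.94 ± 1.13 RPKM for BKO and 9.15 ± 0.544 RPKM for Cre (SD, n = 6 each), and Lamb1 was lower at 5.09 ± 0.915 RPKM for BKO and 4.11 ± 0.693 RPKM for Cre. Of the summed alpha chains Lama5 took 48.0% ± 5.82 for BKO and 41.3% ± 4.17 for Cre, Lama4 34.1% ± 3.26 for BKO and 33.9% ± 3.01 for Cre and Lama3 14.6% ± 2.34 for BKO and 21.0% ± 4.65 for Cre. These shares were not tested. The Lama5 to Lama4 ratio was 1.43 ± 0.291 for BKO and 1.23 ± 0.181 for Cre, an exact permutation p of 0.212 (adjusted 0.495).

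**Figure D3:**
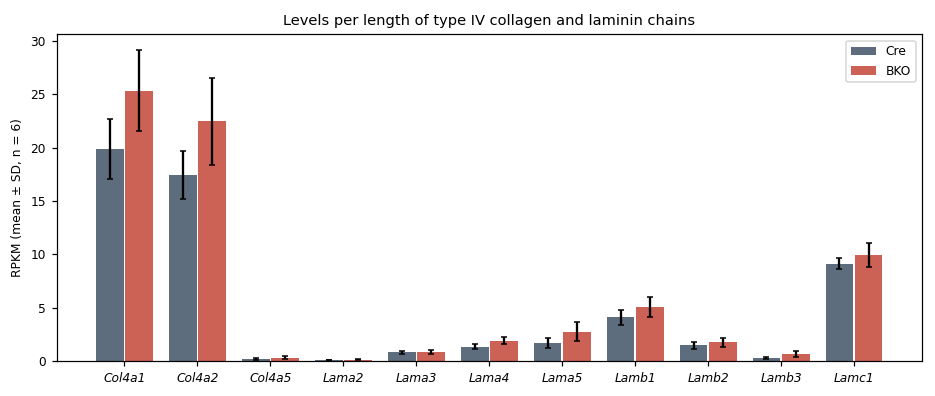
Mean level per length (y axis, RPKM from 0, error bars SD of 6 libraries) of 11 type IV collagen and laminin chains in Cre and BKO islets. Col4a1 and Col4a2 stand highest, and Lamc1 exceeds the alpha and beta chains drawn.

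The linkers had positive fold changes, and none was called with all 12 libraries and no replicate block. Nid1, nidogen-1, ran from 31.2 to 45.5 CPM (median 36.9) over BKO libraries and from 27.3 to 36.0 CPM (median 29.7) over Cre libraries. BKO-1, BKO-3 and BKO-4 lay within the Cre range (log2 fold change 0.28 ± 0.10, unadjusted p = 0.0140, adjusted p = 0.250). Nid2, its paralog, ran from 11.1 to 13.7 CPM (median 12.6) over BKO libraries and from 8.08 to 11.1 CPM (median 9.94) over Cre libraries. Only BKO-5 was below a Cre library, Cre-6, and by a small margin. Its log2 fold change was 0.36 ± 0.10 (unadjusted p = 0.00314, adjusted p = 0.169). Of its exon bases 8.45% are shared with Rtraf, and the labels do not say whether counting used strand. Nid1 and Nid2 levels correlated with r = 0.720 and rho = 0.713 (permutation p = 0.00882 and 0.0122, adjusted p = 0.0106 and 0.0146 over 6 pairs), and r was 0.563 among BKO libraries alone, 0.509 among Cre libraries alone and 0.519 without the 2 libraries farthest from the median. Hspg2, perlecan, ran from 68.1 to 109.5 CPM (median 89.6) over BKO libraries and from 46.1 to 93.2 CPM (median 63.7) over Cre libraries. Cre-5 alone reached into the BKO range, and all 6 BKO libraries were above the Cre mean, a log2 fold change of 0.48 ± 0.16 (unadjusted p = 0.0103, adjusted p = 0.228). With 1 library left out the fold change ran from 0.39 to 0.61, the highest without Cre-5 (adjusted p = 0.0389).

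For the fibrillar collagens, which build interstitial fibrils, the groups overlapped in each of the 8 tested. At an unadjusted p under 0.05, 1 of 8 was higher and 0 lower, against 8.70% and 4.66% of all genes. Col1a1 ran from 1.65 to 5.39 CPM (median 4.10) over BKO libraries and from 1.68 to 6.17 CPM (median 2.73) over Cre libraries, and Col3a1 from 2.29 to 7.51 CPM (median 4.64) over BKO libraries and from 3.18 to 8.56 CPM (median 4.49) over Cre libraries. For both, Cre-5 was the highest and BKO-3 the lowest of all 12 libraries. Their log2 fold changes were 0.19 ± 0.34 (adjusted p = 0.873) and -0.089 ± 0.26 (adjusted p = 0.935). Col1a2, the partner of Col1a1 in type I collagen, was at 0.34 ± 0.27 (adjusted p = 0.660). Levels of Col1a1 and Col1a2 correlated with r = 0.928 and rho = 0.944 (permutation p = 2e-05 and 3e-05, adjusted p = 6e-05 and 9e-05 over 6 pairs), and r was 0.922 among BKO libraries alone, 0.953 among Cre libraries alone and 0.901 without the 2 libraries farthest from the median.

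Col5a2, of the type V collagen in the core of fibrils, was the most abundant fibrillar chain per length (1.29 RPKM for BKO and 1.55 for Cre). It ran from 6.77 to 17.4 CPM (median 12.6) over BKO libraries and from 10.6 to 20.8 CPM (median 15.3) over Cre libraries, a log2 fold change of -0.26 ± 0.21 (adjusted p = 0.654). It was -0.40 without BKO-4, -0.14 without BKO-3 and -0.14 without Cre-5. Col27a1, a fibrillar collagen known from cartilage, was the 1 with an unadjusted p under 0.05. It ran from 11.4 to 21.2 CPM (median 13.4) over BKO libraries and from 6.89 to 13.01 CPM (median 10.7) over Cre libraries. BKO-1 stood highest, and BKO-3, BKO-4 and BKO-6 lay below Cre-5, the highest Cre library (log2 fold change 0.47 ± 0.16, unadjusted p = 0.00927, adjusted p = 0.222). Col5a1, Col5a3 and Col11a2 lay between 0.21 and 0.35. Col2a1, Col11a1 and Col24a1 had at most 11 reads in any library and were not tested.

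Type VI collagen forms beaded filaments near cells. Col6a1 ran from 4.21 to 8.13 CPM (median 6.11) over BKO libraries and from 2.74 to 6.58 CPM (median 3.97) over Cre libraries, a log2 fold change of 0.48 ± 0.22 (unadjusted p = 0.0463, adjusted p = 0.364). Its partner Col6a2 was at 0.41 ± 0.25 (adjusted p = 0.525), and levels of the pair correlated with r = 0.897 and rho = 0.895 (permutation p = 0.000140 and 0.000180, adjusted p = 0.000280 and 0.000360 over 6 pairs); r was 0.885 among BKO libraries alone, 0.941 among Cre libraries alone and 0.909 without the 2 libraries farthest from the median. Col6a3 and Col6a4 were near 0, at 0.035 ± 0.18 and 0.030 ± 0.34. Col6a6, another chain of the type, was the most abundant interstitial collagen chain per length, at 9.15 ± 0.709 RPKM for BKO and 10.3 ± 0.922 RPKM for Cre. It ran from 76.9 to 95.5 CPM (median 83.3) over BKO libraries and from 80.5 to 106 CPM (median 94.2) over Cre libraries. BKO-1 alone was above the Cre mean, and Cre-4 was low among Cre, a log2 fold change of -0.17 ± 0.065 (unadjusted p = 0.0190, adjusted p = 0.277). Col6a5 had at most 3 reads in any library and was not tested.

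Col22a1, a fibril-associated collagen of tissue junctions, had the lowest fold change of the 53. It ran from 4.22 to 12.98 CPM (median 6.02) over BKO libraries and from 8.86 to 14.4 CPM (median 11.2) over Cre libraries. BKO-4 stood high, and the other 5 BKO libraries were below every Cre library. The difference was -0.74 ± 0.23 on the log2 scale (unadjusted p = 0.00678, adjusted p = 0.206). With 1 library left out the difference ran from -1.05 to -0.65. It was -1.05 without BKO-4, the highest BKO library for this gene, whose removal had to widen the difference. In that fit Col22a1 was called lower (adjusted p = 0.00723), as were 0.930% of all genes. β-cell markers were negative in 9 of 10, with a median of -0.20, and their part in the lower values of Col22a1 and Col6a6 was not tested.

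The other fibril-associated chains tested, Col9a2, Col12a1, Col14a1, Col16a1, Col19a1 and Col20a1, lay between -0.17 and 0.21 with no unadjusted p under 0.05. Col20a1, the highest of them per length, ran from 5.92 to 9.74 CPM (median 6.73) over BKO libraries and from 4.59 to 8.60 CPM (median 6.65) over Cre libraries, and Col9a2 from 2.65 to 5.34 CPM (median 3.41) over BKO libraries and from 2.72 to 4.97 CPM (median 3.35) over Cre libraries. Their log2 fold changes were 0.13 ± 0.16 and 0.059 ± 0.21. Leaving out 1 library moved Col20a1 between 0.013 without BKO-1 and 0.20 without Cre-1, and Col9a2 between -0.089 without BKO-1 and 0.18 without Cre-6. Col9a1 and Col9a3, with at most 3 and 12 reads in a library, were not tested. Col8a1, a short-chain collagen of vessel walls, ran from 1.74 to 4.32 CPM (median 2.92) over BKO libraries and from 1.41 to 3.46 CPM (median 1.98) over Cre libraries, at 0.46 ± 0.24 (adjusted p = 0.440) and 0.31 without BKO-6, and its relatives Col8a2 and Col10a1, with at most 11 and 2 reads in a library, were not tested.

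The glycoproteins and proteoglycans of interstitial matrix were positive in 7 of 7, with a median of 0.45 and 4 at an unadjusted p under 0.05. Sparc, a collagen-binding protein, was the most abundant matrix gene per length, at 35.1 ± 5.76 RPKM for BKO and 26.9 ± 4.35 RPKM for Cre. It ran from 103 to 155 CPM (median 138) over BKO libraries and from 86.5 to 132 CPM (median 99.4) over Cre libraries. BKO-2, BKO-5 and BKO-6 were above every Cre library, and all 6 above the Cre mean (log2 fold change 0.38 ± 0.12, unadjusted p = 0.00693, adjusted p = 0.206).

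Dcn, the fibril-binding proteoglycan decorin, ran from 12.2 to 31.3 CPM (median 18.2) over BKO libraries and from 4.24 to 23.2 CPM (median 8.76) over Cre libraries. Every BKO library exceeded every Cre library but Cre-5, and Cre-5 was exceeded by BKO-2 alone. The log2 fold change was 0.91 ± 0.37 (unadjusted p = 0.0320, adjusted p = 0.323). With 1 library left out it ran from 0.71 to 1.31, the highest without Cre-5 (adjusted p = 0.0470). Lum, the related lumican, ran from 1.92 to 4.24 CPM (median 2.67) over BKO libraries and from 0.318 to 2.80 CPM (median 1.18) over Cre libraries, on 4 to 48 reads per library. Again Cre-5 alone reached the BKO range, with a log2 fold change of 1.14 ± 0.33 (unadjusted p = 0.00311, adjusted p = 0.169). With 1 library left out the fold change ran from 0.92 to 1.52, the highest without Cre-5 (adjusted p = 0.0340). Cre-5 also had the highest sum of fibroblast markers, 24.4 CPM, and the part of those cells in these values was not tested. In the fit without Cre-5, 0.770% of all genes were called higher and 0.0367% lower, the former with Dcn, Hspg2, Lamb3, Lum and Mmp2 of the matrix set. Cre-5 was the highest Cre library for each of these matrix genes, so leaving it out had to widen their differences.

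Fn1, fibronectin, on which cells assemble other matrix, ran from 2.84 to 6.90 CPM (median 3.34) over BKO libraries and from 1.41 to 4.03 CPM (median 2.18) over Cre libraries. Cre-5 alone overlapped the BKO libraries, of which BKO-5 and BKO-2 were highest (log2 fold change 0.75 ± 0.27, unadjusted p = 0.0121, adjusted p = 0.239). Fbn1, fibrillin-1 of microfibrils, was at 0.45 ± 0.22 (adjusted p = 0.397), with 20.1% of its exon bases shared with the gene model Gm9913. Bgn, biglycan, was at 0.37 ± 0.27 (adjusted p = 0.627) and Postn, periostin, at 0.22 ± 0.17 (adjusted p = 0.649).

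**Figure D4:**
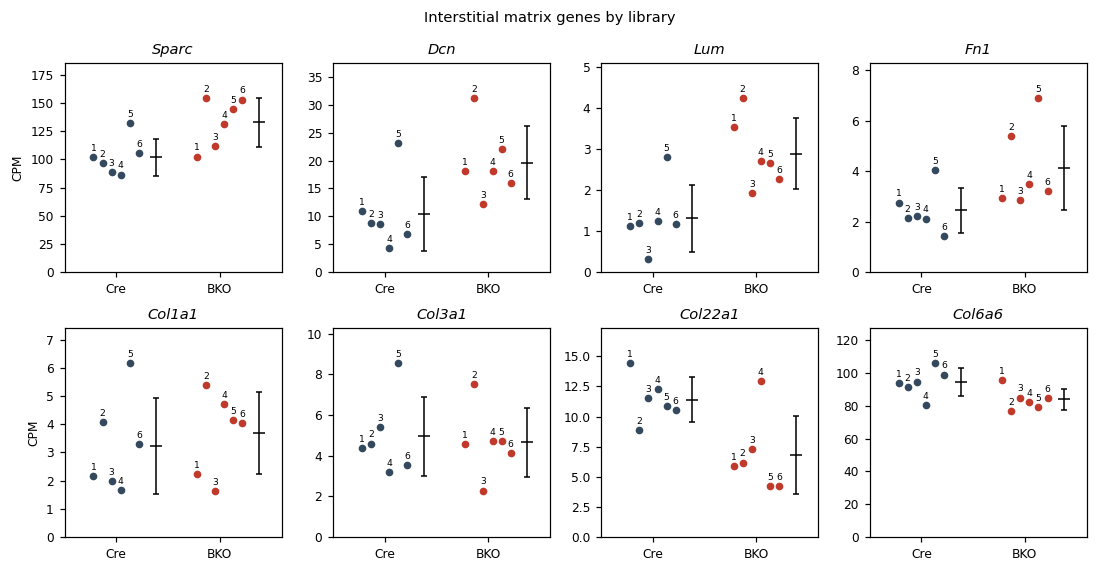
CPM (y axis, from 0) of 8 interstitial matrix genes in each library, marked by replicate number, with the mean ± SD of 6 libraries beside each group. Cre-5 is the highest Cre library in every panel but that of Col22a1, where BKO-4 stands above the other BKO libraries.

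Of matrix proteases and inhibitors, 5 of 5 were positive, with a median of 0.56. Mmp14, a membrane-bound protease that activates Mmp2, ran from 14.5 to 29.3 CPM (median 17.9) over BKO libraries and from 12.98 to 16.8 CPM (median 13.7) over Cre libraries. BKO-2 and BKO-5 stood apart at the top, and BKO-3 and BKO-6 lay within the Cre range. Its log2 fold change was 0.56 ± 0.17 (unadjusted p = 0.00516, adjusted p = 0.193). Mmp2, a gelatinase that cleaves type IV collagen, ran from 1.92 to 5.39 CPM (median 3.98) over BKO libraries and from 1.11 to 5.35 CPM (median 1.38) over Cre libraries. Every BKO library exceeded 5 Cre libraries, and Cre-5 nearly equalled the highest, BKO-5. The log2 fold change was 0.89 ± 0.37 (unadjusted p = 0.0302, adjusted p = 0.317). With 1 library left out it ran from 0.76 to 1.46, the highest without Cre-5 (adjusted p = 0.0283).

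Timp3, an inhibitor held in the matrix, ran from 47.3 to 68.9 CPM (median 56.1) over BKO libraries and from 34.9 to 59.1 CPM (median 45.0) over Cre libraries. BKO-1, BKO-3 and BKO-4 lay below Cre-1 and Cre-5, a log2 fold change of 0.31 ± 0.14 (unadjusted p = 0.0392, adjusted p = 0.348). Of its exon bases 21.3% are shared with Syn3. Timp1, an inducible inhibitor, ran from 2.74 to 11.5 CPM (median 6.46) over BKO libraries and from 2.56 to 11.8 CPM (median 3.32) over Cre libraries, with Cre-5 the highest of all 12 libraries and a wide error (0.60 ± 0.44, adjusted p = 0.618). With 1 library left out the fold change of Timp1 ran from 0.42 to 1.10, the highest without Cre-5. Timp2 was at 0.33 ± 0.17 (adjusted p = 0.408). Timp4 had at most 13 reads in any library and was not tested.

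Of 7 transmembrane and other collagens 3 were tested. Col13a1, a membrane-spanning collagen of adhesion sites, ran from 23.6 to 32.5 CPM (median 29.9) over BKO libraries and from 16.2 to 25.5 CPM (median 23.0) over Cre libraries. BKO-1 and BKO-4 lay below Cre-1, and all 6 BKO libraries were above the Cre mean, a log2 fold change of 0.37 ± 0.11 (unadjusted p = 0.00260, adjusted p = 0.169). Col28a1 ran from 1.31 to 2.84 CPM (median 1.72) over BKO libraries and from 1.24 to 2.07 CPM (median 1.83) over Cre libraries, at 0.039 ± 0.23 (adjusted p = 0.971) and between -0.13 without BKO-1 and 0.11 without BKO-3, and Col7a1, of anchoring fibrils, was at 0.13 ± 0.25 (adjusted p = 0.883). Col17a1, Col23a1, Col25a1 and Col26a1 had at most 16 reads in any library and were not tested.

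Genes that make, bind or regulate matrix gave 0 calls in each of 4 lists in edgeR. In collagen synthesis and cross-linking 14 of 24 tested were positive (median 0.060), with 5 higher and 2 lower at an unadjusted p under 0.05. Among all genes 8.70% were higher and 4.66% lower at that level. Serpinh1, the collagen chaperone, was at 0.58 ± 0.19 on the log2 scale, the collagen galactosyltransferase Colgalt2 at 0.40 ± 0.14 and the collagen export factor Mia3 at -0.17 ± 0.057. Of matrix receptors 16 of 23 were positive (median 0.16), with 7 higher and 0 lower at that level. Itgb4, the integrin chain that binds the laminin of Lamb3, was at 8.26 ± 4.21 CPM over BKO libraries and 3.30 ± 1.91 CPM over Cre libraries (SD, n = 6 each), or 1.32 ± 0.42 on the log2 scale (adjusted p = 0.222). The fibronectin receptor chain Itga5 was at 0.52 ± 0.19 and the collagen receptor Ddr2 at 0.45 ± 0.17.

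Of other matrix proteases and their regulators 16 of 16 were positive (median 0.47), with 10 higher and 0 lower at an unadjusted p under 0.05. Adamts9, a secreted proteoglycan-cleaving protease, was at 0.77 ± 0.23, the plasminogen activator Plat at 0.48 ± 0.15 and Mmp15 at 0.42 ± 0.14. In the TGF-beta pathway, a known inducer of matrix genes, 18 of 20 were positive (median 0.33), with 10 higher and 0 lower. The latent TGF-beta binding proteins Ltbp1 and Ltbp4 were at 1.32 ± 0.36 and 0.59 ± 0.18, and the inhibitory Smad7 at 0.36 ± 0.11. Among all genes 52.8% were positive and 47.2% negative, and 8.70% were higher and 4.66% lower at an unadjusted p under 0.05.

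Summed in each library, the basement membrane genes ran from 731 to 1065 CPM (median 895) for BKO and from 635 to 845 CPM (median 669) for Cre, and 4 of 6 BKO libraries exceeded every Cre library. The interstitial genes ran from 314 to 415 CPM (median 389) and from 273 to 435 CPM (median 323), and 0 of 6 did. Both counts depend on Cre-5, the highest Cre library in both sums (845 and 435 CPM). The next, Cre-6, was at 745 and 346 CPM, and every BKO library but BKO-3 was above it in both sums. Summed in RPKM, 4 of 6 BKO libraries exceeded every Cre library for basement membrane genes and 1 of 6 for interstitial genes. In CPM, 3 of 6 did for interstitial glycoproteins and proteoglycans, and 0 of 6 for fibrillar and for type VI collagens. BKO-2 and BKO-5 had the highest sums of both basement membrane genes and endothelial markers, and Cre-4 the lowest of both.

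**Figure D5:**
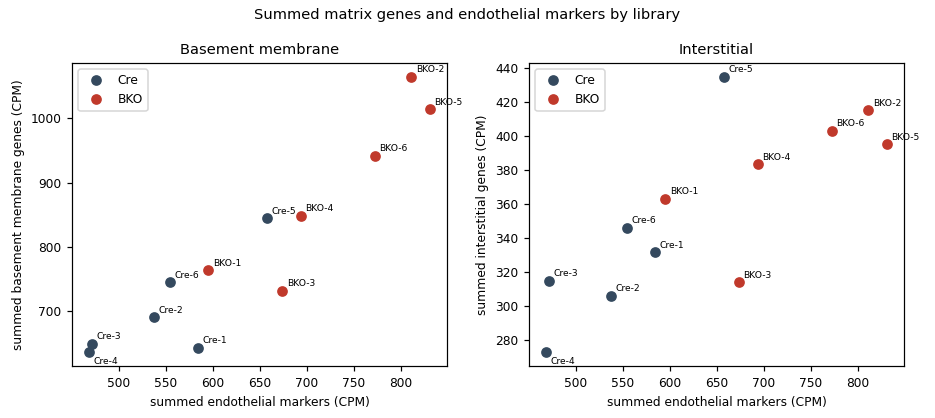
Summed CPM of basement membrane genes (left y axis) and interstitial genes (right y axis) against summed endothelial markers (x axes), 1 point per library. BKO-2, BKO-5 and BKO-6 have the highest basement membrane sums, and Cre-5 the highest interstitial sum.

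Promoter windows were in the RefSeq table for 51 of the 71 genes, 56 windows of 300 bases. The GC box was in 60.7% of the matrix gene windows against 35.7% of all 32851 windows, the CCAAT box in 33.9% against 37.4%, the TATA box (TATAAA) in 10.7% against 13.6% and the AP-1 site (TGANTCA) in 1.79% against 7.81%, each searched on both strands, and no motif contains another. Windows of Lamb1 and Nid1, with positive fold changes, and of Col6a6, with a negative fold change, are shown. None of these genes was called in edgeR. Capitals mark GC and CCAAT boxes of either strand.
Lamb1 (chr12:31265043-31265342, plus strand): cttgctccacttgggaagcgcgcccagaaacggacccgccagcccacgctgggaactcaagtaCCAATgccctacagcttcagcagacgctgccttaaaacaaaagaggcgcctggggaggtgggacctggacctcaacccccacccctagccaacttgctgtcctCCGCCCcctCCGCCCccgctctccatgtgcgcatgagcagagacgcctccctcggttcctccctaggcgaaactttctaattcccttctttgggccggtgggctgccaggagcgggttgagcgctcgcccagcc
Nid1 (chr13:13437352-13437651, plus strand): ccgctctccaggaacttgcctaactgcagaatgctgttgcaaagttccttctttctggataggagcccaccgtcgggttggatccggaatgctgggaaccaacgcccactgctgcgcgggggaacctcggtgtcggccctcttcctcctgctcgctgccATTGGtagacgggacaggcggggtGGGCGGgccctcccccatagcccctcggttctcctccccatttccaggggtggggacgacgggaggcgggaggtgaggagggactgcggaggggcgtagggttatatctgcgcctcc
Col6a6 (chr9:105828036-105828335, minus strand): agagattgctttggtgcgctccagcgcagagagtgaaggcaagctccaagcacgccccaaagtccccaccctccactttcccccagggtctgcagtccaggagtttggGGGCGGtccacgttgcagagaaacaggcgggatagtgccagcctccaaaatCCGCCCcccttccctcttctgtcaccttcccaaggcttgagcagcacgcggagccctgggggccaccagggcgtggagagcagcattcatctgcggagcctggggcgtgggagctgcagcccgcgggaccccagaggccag
Lamb1 has 2 GC boxes and 1 CCAAT box, Nid1 1 and 1, and Col6a6 2 and 0. These counts describe letters only.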

How the data were processed

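Total RNA of islets was sequenced as read pairs, per the labels' protocols. HISAT2 2.0.5, HTSeq and the mm10 build are named in the submitters' processing notes; the annotation and strand setting are not stated in the labels. The deposited files used hold raw read counts per gene symbol, 1 per library. Their 5 summary lines name no gene and were left out: no feature (9.90% and 9.41% of reads for BKO and Cre), ambiguous (1.21% and 1.18%), not unique (5.08% and 5.02%), not aligned (2.43% and 2.47%) and of low alignment quality (18.6% and 20.2%). A deposited table of the whole series was not used.

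All 12 libraries were fitted with edgeR 4.0.16 in R 4.3.3 (filterByExpr, TMM, robust quasi-likelihood test), BKO against Cre, with Benjamini-Hochberg adjustment over 13583 genes at 0.05. An SE is the fold change over the root of its F statistic. CPM use TMM-scaled library sizes, and RPKM the exon length in the GENCODE annotation of GRCm38. Correlations used log2(CPM + 0.1). Libraries of 1 group differed by more than sampling noise (chi-square over its degrees of freedom, 4.84 to 28.3). The fit was also run on simulated data in which genes varied independently. That run does not cover shifts shared by many genes of 1 library. Alternatives were DESeq2 1.42.0, limma 3.58.1 (voom), other scalings and filters, a replicate block, marker scores as covariates and each library left out.

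Given with ranges were genes with an unadjusted p under 0.05 and the 2 highest per length of each role, plus Col1a1 and Col3a1, added after their values were seen, and without 1 gene that is not reported here; of each pathway list, the 3 smallest p. The members and lists were chosen with earlier results of these data known.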

Additional observations from a re-analysis of the deposited data

Results flagged for a closer look

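A library far from the other 5 of its group was looked for in each of 60 groups of values, those of 30 genes in BKO and in Cre, by the gap to its nearest neighbour over the whole range. Chance gives about 5% of independent groups, or 3.0, and 9 were found. These groups are not independent, as Cre-5 was the highest Cre library for 36 of 53 genes, so the 2 numbers cannot measure an excess. In 5 of them Cre-5 was far above the other Cre libraries: Col8a1 at 3.46 CPM (nearest 2.13 CPM), Dcn at 23.2 CPM (nearest 11.01 CPM), Lum at 2.80 CPM (nearest 1.24 CPM), Mmp2 at 5.35 CPM (nearest 1.81 CPM) and Timp1 at 11.8 CPM (nearest 4.82 CPM). Cre-6 stood high for Col9a2 at 4.97 CPM (nearest 3.49 CPM) and low for Col28a1 at 1.24 CPM (nearest 1.79 CPM). In BKO, BKO-4 stood high for Col22a1 at 12.98 CPM (nearest 7.32 CPM) and BKO-1 high for Col27a1 at 21.2 CPM (nearest 14.6 CPM).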

How the results depend on the processing

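Other scalings and read filters left 0 genes called. DESeq2 called 223 genes, 4 of them matrix genes. With the endothelial covariate the median was -0.087 over matrix genes, -0.17 over interstitial and -0.036 over basement membrane genes, -0.068 over receptors and -0.11 over the TGF-beta pathway, and 0 matrix genes were higher at an unadjusted p under 0.05. Single fold changes that turned sign under it were Col4a1 -0.0070, Col4a2 -0.042, Col6a1 -0.14, Col8a1 -0.19, Dcn -0.12, Fn1 -0.26, Hspg2 -0.052, Lama4 -0.016, Lama5 -0.036, Lamb1 -0.087, Lamc1 -0.086, Mmp14 -0.012, Mmp2 -0.34, Nid1 -0.088, Sparc -0.090, Timp1 -0.79 and Timp3 -0.16. Those that kept their sign and shrank by over 1.5 times were Col13a1 0.13, Col15a1 0.26, Col18a1 0.19, Col22a1 -0.49, Lamb3 0.25 and Lum 0.42, and those that grew as much Col28a1 0.28, Col5a2 -0.68 and Col9a2 0.36. With the pericyte and stellate covariate 6 were higher and 3 lower, the median was 0.10, Lamc1 -0.0036 and Timp1 -0.26 turned, and 20 others shrank and 3 grew by over 1.5 times, Lamb3 to 0.65 and Col15a1 to 0.47. With the acinar covariate Col28a1 -0.0048 turned, and in limma-voom Col28a1 -0.051. Leaving out 1 library gave 0 to 262 genes called (262 without BKO-4, 110 without Cre-5), 0 to 5 matrix genes called, 15 to 30 higher at an unadjusted p under 0.05 and a median of 0.26 to 0.41. Fold changes that turned in such fits ranged over -0.13 to 0.11 for Col28a1 and -0.089 to 0.18 for Col9a2, and the log2 ratio difference of Col4a1 to Col4a2 over -0.020 to 0.016. The cause of these changes was not tested. The counts at an unadjusted p and the ratios without a library were added after seeing the data.

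With the replicate number as a block, 364 genes were called (292 higher and 72 lower), 13 of them matrix genes, 12 higher and 1 lower, against 2.15% and 0.530% of all genes. They were Col13a1, Col15a1, Col18a1, Col4a1, Col4a2, Hspg2, Lama4, Lama5, Lamb3, Lum, Mmp14, Sparc (higher) and Col22a1 (lower). For 11065 genes with a mean over 5 CPM, the deviation of the log2 level from its group mean was taken in each library. Between libraries of the same number these deviations correlated between -0.13 and 0.38. For 4 of 6 numbers the BKO library correlated best with the Cre library of its own number, a hint from the data that some share structure. The labels do not tie numbers to a shared animal, batch or day, and for 2 of 6 pairs the correlation of these deviations was under 0.1. The fit without the block is the one reported.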
